A study of Mus musculus with 25 samples.

Results

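The comparison set 10 caffeine-treated mouse livers against 10 livers of mice that had the same carcinogen and no caffeine, over mice with and without the drug sorafenib. Libraries were chosen by their labels alone: 5 DEN_CAF and 5 DEN_CAF_SOR libraries on the caffeine side, 6 DEN and 4 DEN_SOR libraries on the other, 20 of the 25 libraries of the series. All 20 mice were C3H/HeJ males (mice that readily form liver tumours), aged 5 weeks at the start, and all were injected with diethylnitrosamine (DEN), an alkylating liver carcinogen, at 25 mg/kg in 5 cycles. After a month of rest, DEN_CAF mice received caffeine at 50 mg/kg 3 times a week, DEN_SOR mice sorafenib at 30 mg/kg 2 times a week, DEN_CAF_SOR mice both, and DEN mice the vehicles, for 3 weeks through the stomach. Untreated mice had saline in place of the carcinogen, and their 5 libraries serve only as a level beside the others. A fit with a caffeine term and a sorafenib term asked which genes differ with caffeine whatever the sorafenib status, and a further fit asked whether the caffeine difference depends on sorafenib.

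Caffeine blocks adenosine receptors on the cell surface and, at higher concentrations, inhibits the phosphodiesterases that break down cyclic AMP. The liver clears it, mainly through the cytochrome P450 enzyme Cyp1a2 of hepatocytes around the central vein, with N-acetyltransferases, aldehyde oxidases and xanthine oxidase acting on its products. Sorafenib is a kinase inhibitor used against hepatocellular carcinoma, with targets in RAF kinases and in the growth factor receptors of endothelial cells.

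Assigned reads ran from 14750278 to 21992613 in the 20 libraries. Levels are FPKM, the reads on a gene scaled for its length and the size of the library. The hepatocyte markers were expressed in every library, with albumin (Alb) between 15762 and 61874 FPKM and the liver transcription factor Hnf4a between 49.1 and 124. Other hepatocyte markers ranged more widely, with Cps1 between 55.6 and 664 FPKM and Cyp2e1 between 47.8 and 3182. Genes of the mitochondrial chromosome took 5.65% to 23.6% of reads in the caffeine livers (median 8.94%) and 6.74% to 34.8% in the other livers (median 7.52%). After each group's mean was subtracted, DEN 3 and DEN 4 lay farthest out on the first principal component, which held 30.6% of the remaining variance. DEN_SOR 4 had the fewest reads and the highest mitochondrial share. Many values are therefore also given without these 3 libraries, a choice made after seeing the data. DEN 3, DEN 4 and DEN_SOR 4 are called the 3 outlying libraries, and all lie on the side without caffeine. Caffeine livers with high mitochondrial shares were kept, such as DEN_CAF 3 (23.6%) and DEN_CAF 4 (23.1%). Leaving out livers of that side alone can itself shift a difference, so these values are no neutral check. DEN_SOR 1 stood apart in sex-biased, endothelial and immunoglobulin genes, as described with those genes. Of the Untreated libraries, 3 of 5 had 13370 or more reads of Xist, the RNA that coats the inactive X of female cells, against at most 21 in each of the 20 carcinogen-treated libraries, so Untreated levels come in part from livers with the expression of females. In pieces of liver, fewer cells of a type and less RNA per cell cannot be told apart.

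No gene differed with caffeine at an adjusted p of 0.05. Of 12470 genes tested, limma with Benjamini-Hochberg adjustment called 0 (0%), and count models fitted to the recovered reads with edgeR and DESeq2 also called 0. An unadjusted p under 0.05 was found for 256 genes by limma (2.05%), of which 155 were higher with caffeine (1.24%) and 101 lower (0.81%). The number was 298 by edgeR and 399 by DESeq2. The smallest adjusted p was 0.584, for the microRNA gene Mir6942, and the next was 0.9999. These genes below an unadjusted 0.05 are fewer than the 5% that a flat distribution of p would hold, as the plot of p by bin shows.

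**Figure D1:**
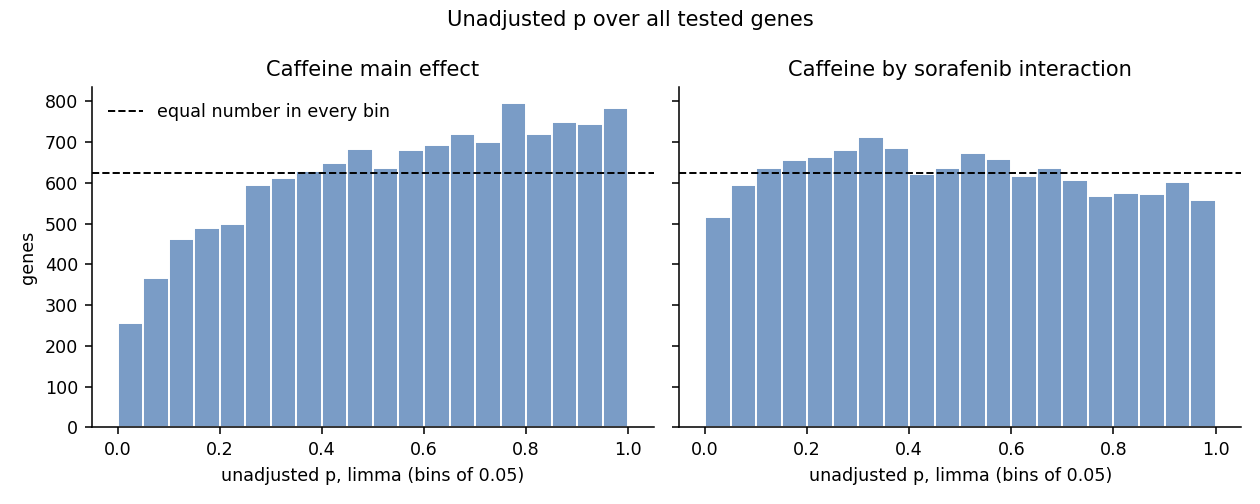
Number of genes in each bin of unadjusted limma p (bins of 0.05, 12470 genes) for the caffeine main effect (left) and the caffeine by sorafenib interaction (right), with a dashed line at an equal number per bin. The lowest bin holds 256 genes on the left and 516 on the right, both under the line.

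The differences were small for most genes and their errors were narrow enough to bound them. The median log2 difference, caffeine minus other, was 0.01, and the percentiles 1 and 99 over genes were -0.45 and 0.49. The median standard error (SE) was 0.13. For 11888 genes, 95.3% of those tested, the 95% interval of the difference lay within 1 log2 unit of 0, which is a change of less than 2-fold on the scale of log2(FPKM + 1). Only 18 genes had a fitted difference of 1 log2 unit or more in either direction. Fitted values were above 0 for 54.9% of genes and below 0 for 45.1%, which is the background for the counts of gene groups given further on.

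Among single genes, Zfand1 was the one whose 10 caffeine livers all lay above the 10 others (1 of 12470 genes, 0.00802%). Zfand1 encodes a zinc finger protein that brings the proteasome to stress granules, and lies at chr3:10405013-10416377 on the minus strand (GRCm39). Its levels were 3.82, 4.25, 3.95, 3.97 and 4.65 FPKM in DEN_CAF and 4.48, 4.24, 4.27, 4.72 and 4.23 in DEN_CAF_SOR. Without caffeine they were 3.57, 3.71, 2.71, 2.27, 3.20 and 3.62 FPKM in DEN and 3.35, 3.68, 3.23 and 3.68 in DEN_SOR. The 2 sides did not overlap, the nearest values being 3.71 and 3.82 FPKM. The log2 difference was 0.29 (SE 0.07, unadjusted p = 0.000446, adjusted p = 0.9999, limma), with 0.31 without sorafenib and 0.27 with it. It was 0.23 without the 3 outlying libraries. Untreated livers ran from 4.01 to 5.31 FPKM. Reads on Zfand1 ran from 266 to 600 per library.

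The other genes with the smallest unadjusted p on the higher side had a positive value in both sorafenib arms, except Mterf2, and none was called. These genes and those of the lower side were picked by p. Counts of their values beyond the median or range of the other side therefore add no support. Tatdn3, of a family of deoxyribonucleases, had 2.55 to 3.95 FPKM with caffeine (median 3.14) and 1.63 to 3.01 without (median 2.19). All 10 caffeine values lay above the median of the others and 6 above their highest (log2 difference 0.31, SE 0.09, unadjusted p = 0.00172). Shf, an adaptor with an SH2 domain, had 4.68 to 9.93 FPKM (median 6.32) against 3.15 to 6.34 (median 5.03), and its log2 difference was 0.44 (SE 0.12), or 0.52 without the 3 outlying libraries. The ranges of both genes overlapped, and the Untreated livers, at 2.80 to 3.99 FPKM for Tatdn3 and 8.31 to 10.04 for Shf, lay on the side of the caffeine livers.

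Galnt4, a transferase that starts O-linked glycan chains, had 2.48 to 2.89 FPKM with caffeine and 1.85 to 2.64 without (log2 difference 0.19, SE 0.06). Fn3k, the kinase that removes sugar adducts from proteins, had 3.16 to 4.80 FPKM (median 4.42) against 1.25 to 4.43 (median 2.84), a log2 difference of 0.44 (SE 0.13). For both genes all 10 caffeine values exceeded the median of the other livers. Cwc27, a spliceosome protein, differed by 0.25, Ssbp3, a cofactor of LIM-domain transcription factors, by 0.26, and Rtn4rl1, a Nogo receptor relative, by 0.27 on the log2 scale. Fbxo21, a ubiquitin ligase subunit, had the largest of these differences at 0.67 (SE 0.23, unadjusted p = 0.00773), with 15.9 to 34.2 FPKM against 4.91 to 26.2. Its difference was 1.00 without sorafenib and 0.26 with it, and the main difference was 0.47 without the 3 outlying libraries.

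On the lower side the 10 genes with the smallest unadjusted p were negative in both arms, and none was called. Fbxw4, a further F-box protein, had 3.86 to 5.75 FPKM with caffeine (median 4.83) and 4.81 to 7.08 without (median 5.76). Its log2 difference was -0.24 (SE 0.07, unadjusted p = 0.00420), with all 10 caffeine values below the median of the others. Acacb, the acetyl-CoA carboxylase whose malonyl-CoA restrains fatty acid entry into mitochondria, had 1.48 to 4.25 FPKM (median 2.35) against 1.83 to 5.62 (median 4.18). Acacb differed by -0.50 (SE 0.17, unadjusted p = 0.00668), by -0.48 without sorafenib and -0.54 with it, and the 2 ranges overlapped widely. The 2 lowest values without caffeine, both in DEN libraries, lay below the caffeine median, as the plot of levels by group shows.

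Nacc1, a BTB-domain transcriptional repressor, had 4.16 to 6.57 FPKM with caffeine and 5.63 to 9.04 without, a log2 difference of -0.24 (SE 0.08). Ogfod1, a prolyl hydroxylase of a ribosomal protein, had 1.25 to 1.97 FPKM against 1.77 to 3.26 (log2 difference -0.22, SE 0.08), and 8 of its 10 caffeine values lay below the lowest of the others. For both genes the Untreated levels, 4.06 to 5.47 and 1.36 to 1.97 FPKM, were nearer to those of the caffeine livers. In the text Untreated levels are given for only some of the genes picked by p, so they do not describe the set. Part of the Untreated livers had the expression of females, as stated above. Slc10a2, the sodium-dependent bile acid carrier of bile duct cells, had 2.23 to 7.65 FPKM (median 4.43) against 3.43 to 11.7 (median 7.05), a difference of -0.58 (SE 0.20). The histone acetyltransferase Kat8 differed by -0.25, the golgin Golga3 by -0.16, Leng9 by -0.50, the methyltransferase-like Spout1 by -0.26 and the signalling adaptor Ywhag by -0.24. Without the 3 outlying libraries Kat8 differed by -0.32, Acacb by -0.40 and Ywhag by -0.13, and every gene picked by p kept its sign.

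The smallest unadjusted p of all belonged to Mir6942, which the rule for named genes leaves out as a microRNA gene and which was singled out after its values were seen. Its annotated gene is 61 bases long at chr13:21580748-21580808 (GRCm39, minus strand), within the zinc finger gene Zkscan3 on the same strand, so reads of the host transcript can be counted to it. It had 1 to 7 reads in each caffeine library, 33 in all, and 0 to 3 in each other library, 7 in all with 6 libraries at 0. The fitted log2 difference was 1.36 (SE 0.26, unadjusted p = 4.69e-05, adjusted p = 0.584, limma), and with 0 to 7 reads it rests on very few reads. It passed the filter on low values through the caffeine livers, whose median was 2.72 FPKM against 0 in the others, so the filter itself favoured a difference. Zkscan3 had 13297 reads over the caffeine libraries and 11574 over the others, with a log2 difference of 0.14 (unadjusted p = 0.351). Total RNA libraries of this kind hold fragments of longer transcripts, and how much mature microRNA they hold was not tested.

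The mature products of Mir6942 are shown to say what the locus encodes, with the seed (bases 2 to 8) in capitals, from RefSeq on GRCm38.p6, where they lie on the minus strand at chr13:21396613-21396633 and chr13:21396579-21396600.
mmu-miR-6942-5p: uAGGAGGAggggaacauuugc
mmu-miR-6942-3p: uUAUGGUUcucuccaccucuca

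No gene that handles caffeine was called. Of 12 genes in the list for caffeine metabolism 11 were tested and 0 called, with 8 above 0 and 3 below and a median log2 difference of 0.23. The SD of the list's mean level between libraries of a group was 0.49, a spread between single livers and not the error of that median. Cyp1a2, the main caffeine-clearing enzyme, had 110 to 350 FPKM with caffeine (median 212) and 10.3 to 349 without (median 174). The low end came from DEN 4 at 10.3 and DEN 3 at 53.1 FPKM, and the other ranges overlapped. Its log2 difference was 0.62 (SE 0.46, 95% interval -0.35 to 1.59, unadjusted p = 0.196), and -0.02 without DEN 3, DEN 4 and DEN_SOR 4. The median of the list was -0.02 without these 3 libraries.

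Nat2, an N-acetyltransferase, was the member with the smallest p. It had 12.4 to 23.7 FPKM with caffeine (median 17.0) and 9.80 to 19.4 without (median 12.7), overlapping ranges with 9 of 10 caffeine values above the median of the others. The log2 difference was 0.38 (SE 0.14, unadjusted p = 0.0116), 0.31 without sorafenib and 0.46 with it. The aldehyde oxidases Aox1 and Aox3 differed by 0.49 and 0.56 with SEs of 0.33 and 0.45, and by 0.27 and 0.33 without the 3 outlying libraries. Xdh, xanthine oxidase, had 5.14 to 13.1 FPKM against 5.62 to 13.1, a difference of -0.05 with a 95% interval from -0.38 to 0.29. Of the targets of the aryl hydrocarbon receptor, the regulator of Cyp1a2, 9 were tested, 7 were above 0 and 0 called, and of 29 tested targets of the drug sensors CAR and PXR 19 were above 0 and 0 called. The medians of these lists were 0.08 and 0.24, and both were below 0 without the 3 outlying libraries, at -0.08 and -0.28. The median of the CAR and PXR list was -0.03 without DEN 4 alone. Cyp2b10, a CAR target, ran from 2.83 to 444 FPKM with caffeine and from 0 to 156 without (log2 difference 0.83, SE 0.99), and its difference was -0.36 without the 3 outlying libraries.

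The proteins that caffeine acts on showed no called difference in their RNA. Of 20 genes for adenosine receptors, transport and turnover 14 were tested, with 10 above 0, 4 below, 0 called and a median of 0.14. That median was -0.06 without DEN 3, DEN 4 and DEN_SOR 4. Adora1, an inhibitory adenosine receptor, had 5.45 to 17.6 FPKM with caffeine (median 8.02) and 2.89 to 10.7 without (median 7.33), a log2 difference of 0.24 (SE 0.19), or 0.07 without the 3 outlying libraries. Adora2a, a receptor that raises cyclic AMP, was too low for the test, at 0.229 to 1.07 FPKM against 0.0756 to 0.928, and Adora2b reached at most 0.216 FPKM in any of the 20 livers. Ada, the deaminase that removes adenosine, had 0.993 to 2.04 FPKM against 0.671 to 1.76 (log2 difference 0.22, SE 0.10, unadjusted p = 0.0442), and Enpp3, an ectoenzyme that breaks down nucleotides, differed by 0.43 (SE 0.23).

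Of 19 phosphodiesterase genes 9 were tested, 2 were above 0 and 7 below, 0 were called, and the median was -0.07. Without the 3 outlying libraries the median was 0.05, over the members that then passed the filter, which left out Pde1b. Pde1b, a calmodulin-dependent member, had 0.534 to 0.83 FPKM against 0.362 to 2.73 (log2 difference -0.29, SE 0.16). All its caffeine values lay below the filter's minimum FPKM of 1. Pde1b thus passed the filter only through the other livers, and the filter itself favoured a negative difference. Pde4c differed by 0.15 (SE 0.17). Among 12 tested targets of cyclic AMP and CREB 10 were below 0, 0 were called and the median was -0.14, or -0.36 without the 3 outlying libraries. Tat, the tyrosine aminotransferase of the fasting response, ran from 109 to 1167 FPKM with caffeine and from 130 to 1019 without (log2 difference -0.54, SE 0.44, and -1.01 without those libraries), and the kinase gene Sik1 differed by -0.40 (SE 0.35). Of 12 tested genes of ryanodine and IP3 calcium handling 9 were below 0, with 1 at an unadjusted p under 0.05, the calcium pump Atp2a2 (log2 difference -0.27, SE 0.13). The 12 tested genes of the ATM and ATR checkpoint, which caffeine inhibits at high concentrations, had a median of -0.01.

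Several clock genes ranged widely between mice of 1 group. Of 15 tested core clock genes 5 were above 0 and 10 below, 0 were called, and the median was -0.10. Nr1d1, a clock repressor, had 8.16 to 35.8 FPKM with caffeine (median 20.1) and 3.31 to 45.2 without (median 8.61). The DEN livers held the low values, 3.31 to 16.1 FPKM, while DEN_SOR livers had 24.0, 31.8, 5.18 and 45.2. The log2 difference was 0.75 (SE 0.39, unadjusted p = 0.0720), made of 1.68 without sorafenib and -0.39 with it. Nr1d2, its relative, differed by 0.43 (SE 0.23), with 0.95 and -0.21 in the arms.

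Cry1, a further repressor, had 1.59 to 5.27 FPKM with caffeine (median 2.95) and 1.51 to 7.84 without (median 5.77). All 10 caffeine values were below the median of the others, and the log2 difference was -0.49 (SE 0.21, unadjusted p = 0.0302), from -0.88 without sorafenib and -0.01 with it. Dbp, an output regulator of the clock, ran from 1.40 to 71.2 FPKM with caffeine and from 0.719 to 97.5 without, so that its difference of 0.48 had an SE of 0.75. Per1 differed by -0.27 (SE 0.43) and Arntl, an activator of the clock, by 0.07 (SE 0.27). The hour at which each liver was taken is not given in the sources used here, and its part in these values was not tested.

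Metabolic gene groups held no called member. The genes of gluconeogenesis and glycogen were 8 above 0 and 9 below (17 tested, median -0.01, and -0.28 without the 3 outlying libraries), those of lipid droplets and PPARgamma 6 and 8, and periportal genes 9 and 11. Of 30 genes of fatty acid oxidation and PPARalpha, all tested, 26 were above 0, 4 below and 0 called, with a median of 0.11 and an SD of the list's mean level between libraries of 0.50. Angptl4, a lipoprotein lipase inhibitor, differed by 0.50 and Cyp4a12a, a fatty acid hydroxylase, by 0.97 (SE 0.80). Without DEN 3, DEN 4 and DEN_SOR 4 the median of the group was -0.14 and the difference of Cyp4a12a -0.02. Among 24 genes of fatty acid synthesis 8 were above 0 and 16 below, the median was -0.06, and Acacb was the 1 member with an unadjusted p under 0.05. In the arms the median of this list was -0.20 without sorafenib, where 4 of 24 were above 0, and 0.28 with it, where 17 were. Scd1, the desaturase that makes oleate, had 128 to 1050 FPKM with caffeine and 113 to 970 without, a log2 difference of 0.10 (SE 0.39), and Thrsp, a lipogenic coregulator, differed by -0.38 (SE 0.40).

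Of 24 genes of bile acid synthesis and transport 18 were above 0 and 6 below, 0 were called, and the median was 0.18, or -0.05 without DEN 3, DEN 4 and DEN_SOR 4. Cyp7a1, the rate-limiting enzyme of bile acid synthesis, had 4.80 to 34.8 FPKM with caffeine and 0.282 to 58.4 without (log2 difference 0.64, SE 0.49). Cyp7b1 and Cyp8b1, which set the route and the hydroxylation of bile acids, differed by 0.95 (SE 0.63) and 0.71 (SE 0.60), and by 0.34 and -0.23 without those libraries. Of 21 tested Wnt targets of pericentral hepatocytes 17 were above 0 and 4 below, with a median of 0.17, or -0.08 without the same 3 libraries. Tbx3, a transcription factor of this zone, was the member with an unadjusted p under 0.05, with a log2 difference of 0.58 (SE 0.23). Nqo1, a quinone reductase among 30 tested NRF2 targets of which 21 were above 0, had 3.26 to 20.5 FPKM against 0.861 to 12.3 (log2 difference 0.58, SE 0.29). Without the 3 outlying libraries Nqo1 differed by 0.32, and the median of the NRF2 list was -0.03 in place of 0.16.

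No tumour or fetal marker was called, and the values of several rested on few libraries. Of 18 tested oncofetal and tumour markers 16 were below 0 and 2 above, 0 were called, and the median was -0.44 with an SD of the list's mean level between libraries of 0.82. Afp, alpha-fetoprotein, had 0.354 to 4.04 FPKM with caffeine (median 0.680) and 0.358 to 149 without (median 1.26). Of the livers without caffeine, DEN 4 had 149 FPKM and DEN 3 had 32.4, while the other 8 ranged from 0.358 to 3.68. The log2 difference of Afp was -1.17 (SE 0.70, unadjusted p = 0.110), or -0.64 without DEN 4 and -0.07 without the 3 outlying libraries. H19, an imprinted fetal RNA, had 6.80 to 82.6 FPKM against 4.25 to 1193, a difference of -0.89 (SE 0.76) that was 0.22 without DEN 3, DEN 4 and DEN_SOR 4. The median of the list was -0.21 without DEN 4 and -0.15 without the 3 libraries.

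Akr1c18, a hydroxysteroid dehydrogenase, had 0.180 to 11.8 FPKM with caffeine and 0.0869 to 294 without (log2 difference -1.63, SE 0.81, unadjusted p = 0.0581). Its difference was -1.02 without DEN 4 and -0.44 without the 3 outlying libraries. Ly6d, a surface protein of progenitor cells, and Lcn2, an iron-binding acute phase protein, differed by -1.01 (SE 0.69) and -0.996 (SE 0.92), and by -0.44 and 0.09 without those libraries. Cdkn1a, a p53 target that halts the cell cycle, had 4.39 to 17.1 FPKM against 3.35 to 83.3, a difference of -0.11 (SE 0.38) that was -0.51 without them, and the median over 17 tested p53 targets was 0.00. Mki67, a proliferation marker, differed by -0.05 (95% interval -0.49 to 0.40), and 9 of 17 tested proliferation genes were above 0.

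Genes with a sex bias in liver split between the arms. Of 30 tested male-biased genes 27 were above 0, 3 below and 0 called, with a median of 0.58, made of 0.01 without sorafenib and 1.28 with it. Mup16 and Mup7, major urinary proteins, differed by 1.21 (SE 0.77) and 1.19 (SE 1.61), and by 0.53 and -0.74 without the 3 outlying libraries. As near-identical genes of one family their reads may be shared out uncertainly. Of 27 tested female-biased genes 19 were below 0 and 8 above, with a median of -0.23, which was 0.31 without sorafenib and -0.97 with it. A1bg, a female-biased secreted protein, ran from 0.0185 to 20.5 FPKM with caffeine and 0 to 146 without (log2 difference -1.15, SE 0.80). DEN_SOR 1 had the lowest mean level of the male-biased list and the highest of the female-biased list among the 20 livers. Without DEN_SOR 1 the main medians of the male-biased and female-biased lists were 0.34 and -0.05. Leaving out DEN_CAF 1 moved them the other way, to 0.86 and -0.46. Without the 3 libraries named at the start they were 0.07 and -0.19.

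The value for endothelial markers also depended on DEN_SOR 1. Of 18 tested markers 17 were above 0 and 1 below, 0 were called, and the median was 0.20, with -0.12 without sorafenib and 0.60 with it. Clec4g, a lectin of sinusoidal endothelium, had 20.5, 17.7, 11.6, 12.1 and 10.8 FPKM in DEN_CAF and 21.1, 18.4, 14.9, 12.1 and 17.6 in DEN_CAF_SOR. It had 16.5, 24.4, 9.74, 5.46, 22.5 and 16.6 FPKM in DEN and 2.39, 15.7, 13.8 and 7.41 in DEN_SOR, with the lowest value in DEN_SOR 1. The difference of Clec4g was 0.41 (SE 0.29) and that of Bmp2, an endothelial signal for iron control, 0.36 (SE 0.20). Without DEN_SOR 1 the median of the list was 0.05, and without the 3 outlying libraries Clec4g differed by 0.16 and Bmp2 by 0.18.

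Of 8 tested markers of B and plasma cells 5 were below 0, 0 were called, and 3 had an unadjusted p under 0.05. Igkc, an immunoglobulin light chain, had 8.60 to 32.6 FPKM with caffeine and 9.15 to 280 without, with 280 in DEN_SOR 1 and 124 in DEN 4, and a difference of -0.98 (SE 0.46, unadjusted p = 0.0455). Ighg1, a heavy chain, differed by -1.05 (SE 0.43), with 1 to 1841 reads per library. Ighg1 no longer passed the filter on low values once the 3 outlying libraries were left out. It thus needed livers without caffeine to pass, and the filter itself favoured a negative difference. The medians of Kupffer cell, stellate cell, and monocyte markers were 0.01, 0.04 and 0.04. For stellate cell markers the median was -0.12 without sorafenib, with 4 of 22 above 0, and 0.23 with it, with 20 above 0. For the 5 tested neutrophil markers the median was -0.47, and 0.04 without DEN 3, DEN 4 and DEN_SOR 4. The part of other cell types in the gene groups above was not tested.

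Among defence and stress genes no member was called. Of 33 tested interferon-stimulated genes 31 were below 0 and 2 above, 0 were called, and the median was -0.14, beside an SD of the list's mean level between libraries of 0.30. Oasl1 and Zbp1, an antiviral protein and a nucleic acid sensor, differed by -0.41 (SE 0.23) and -0.37 (SE 0.24), and by -0.65 and -0.28 without the 3 outlying libraries. In the arms the median was 0.01 without sorafenib, where 17 of 33 were above 0, and -0.34 with it, where 5 were. Of 19 tested genes of the integrated stress response 8 were above 0 and 11 below, with a median of -0.02. Of 13 tested genes of MHC class I presentation 12 were below 0, with a median of -0.09. Of 25 genes of the unfolded protein response 21 were below 0, 0 were called and the median was -0.08. Dnajb9, a chaperone of the endoplasmic reticulum, had 6.84 to 19.01 FPKM against 8.31 to 32.0 (log2 difference -0.46, SE 0.23), and Syvn1, a ubiquitin ligase of that compartment, differed by -0.36 (SE 0.16, unadjusted p = 0.0356). Of 16 tested heat shock genes 12 were below 0, with Hspa8 at -0.39 (SE 0.20), and the median was -0.15. Without the 3 outlying libraries the medians of the interferon, unfolded protein response and heat shock lists were -0.23, -0.17 and -0.22. Those of the integrated stress response and MHC class I lists were then -0.07 and -0.08.

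**Figure D2:**
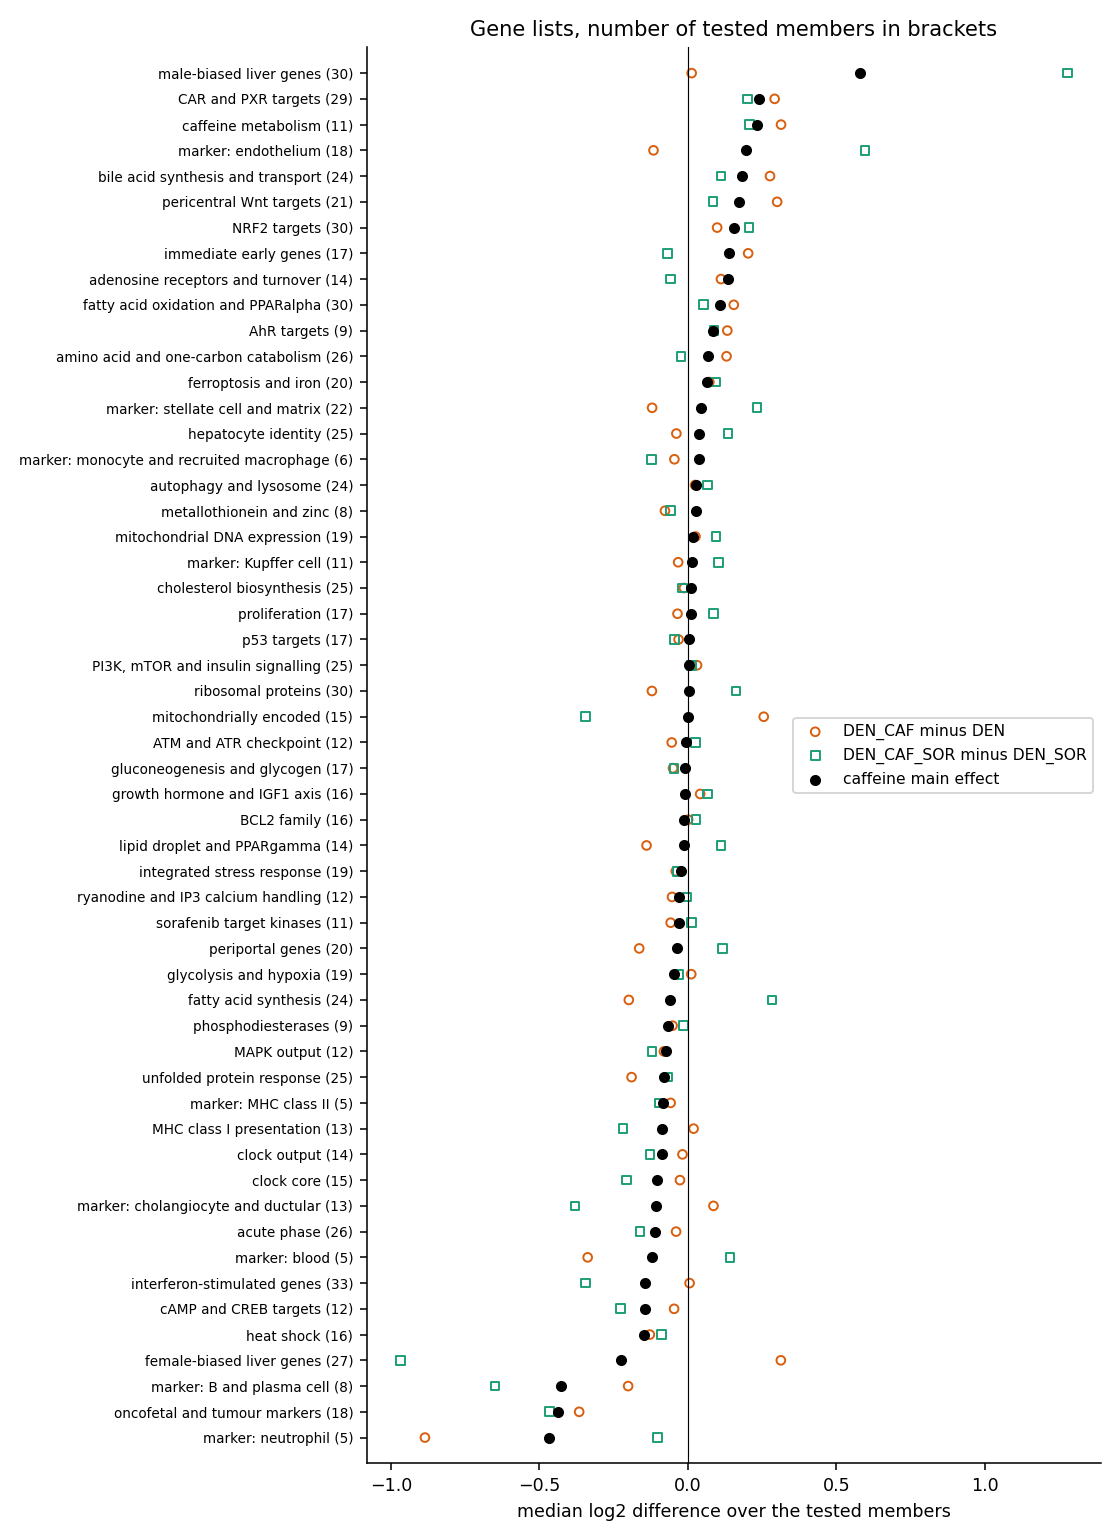
Median log2 difference over the tested members of each gene list with 5 or more of them (filled points, caffeine main effect; open circles, DEN_CAF minus DEN; open squares, DEN_CAF_SOR minus DEN_SOR; 0 is no difference). The main-effect medians run from -0.47 for neutrophil markers to 0.58 for male-biased genes, and for several lists the 2 arms lie on opposite sides of 0.

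In all, 59 lists held 1061 genes, 879 of them tested, and no list had a called member. The main-effect median was above 0 for 27 lists and below 0 for 32. Genes of a list share regulation and libraries, so a count of members on one side of 0 does not add up as independent evidence. The lists were described and not tested.

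The caffeine differences of the 2 arms did not run together across genes. DEN_CAF minus DEN and DEN_CAF_SOR minus DEN_SOR share no library. Across the 12470 genes their Pearson correlation was -0.17 and the Spearman correlation -0.16, a description in which genes are not independent replicates. The sign was the same in both arms for 5416 genes, 43.4%. An unadjusted p under 0.05 in both arms was found for 27 genes, of which 6 had the same sign. In the arm without sorafenib limma called 0 genes (0%, with 323 at an unadjusted p under 0.05, 2.59%), and in the arm with sorafenib 0 (0%, with 450, 3.61%). DESeq2 called 7 and 1 and edgeR 0 and 0.

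**Figure D3:**
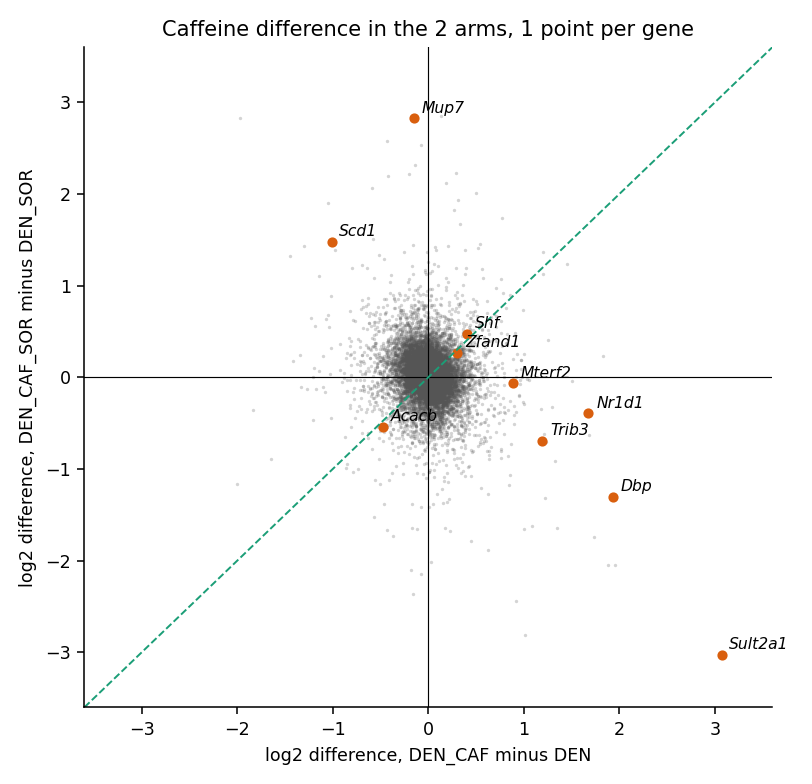
Log2 difference with caffeine for 12470 genes, without sorafenib (horizontal axis) and with sorafenib (vertical axis); the dashed line marks equal differences. Zfand1, Shf and Acacb lie near the line, while Trib3, Nr1d1, Dbp and Scd1 lie in quadrants where the signs are opposite.

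The interaction test compared the arms directly. Limma called 0 of 12470 genes (0%), with 516 at an unadjusted p under 0.05 (4.14%) and a smallest adjusted p of 0.324, while DESeq2 called 8 and edgeR 0. The smallest p belonged to Trib3, a pseudokinase induced by amino acid and ER stress. Trib3 had 4.75 to 11.6 FPKM in DEN and 12.0 to 22.1 in DEN_CAF, which did not overlap. With sorafenib the order was the other way, with 11.4 to 27.3 FPKM in DEN_SOR and 8.18 to 11.2 in DEN_CAF_SOR, again without overlap. Trib3 was picked for its p, so this separation is no further support. How many other genes separate within an arm was not counted. The differences were 1.19 (SE 0.23) and -0.69 (SE 0.25), and the interaction was -1.88 (SE 0.34, unadjusted p = 2.60e-05, adjusted p = 0.324, limma). Pooled over both arms, the caffeine difference of Trib3 was 0.35 (SE 0.27).

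Mterf2, a regulator of mitochondrial transcription, had 1.06 to 1.53 FPKM in DEN and 2.10 to 4.85 in DEN_CAF, without overlap. Mterf2 was also among the genes of lowest p, so this separation is no further support. In DEN_SOR it had 1.82, 2.54, 2.49 and 3.26 FPKM and in DEN_CAF_SOR 2.64, 1.87, 2.34, 2.19 and 2.69, which overlapped. The arm differences were 0.88 (SE 0.14, adjusted p = 0.0681, limma) and -0.07 (SE 0.16), the interaction had an unadjusted p of 0.000251, and the pooled difference of 0.46 (SE 0.15) came from the arm without sorafenib. Other regulators of mitochondrial DNA expression differed less, with 0.18 (SE 0.06, unadjusted p = 0.011) for Mterf4 and 0.15 (SE 0.07) for the mitochondrial RNA polymerase Polrmt. Reads on Mterf2 ran from 34 to 159 per library.

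Scd1 also had opposite signs in the arms. It had 364 to 970 FPKM in DEN and 128 to 657 in DEN_CAF, against 113 to 283 in DEN_SOR and 365 to 1050 in DEN_CAF_SOR. The arm differences were -1.01 (SE 0.39) and 1.48 (SE 0.43), and the interaction 2.49 (unadjusted p = 0.000400, adjusted p = 0.955, limma). Thrsp had -1.22 and 0.65 in the arms, with an interaction p of 0.0160 before adjustment. Nr1d1 had an interaction of -2.07 (unadjusted p = 0.00536), Nr1d2 of -1.16 (0.00844) and Dbp of -3.24 (0.0278). For these genes the pooled caffeine difference averages values of opposite sign.

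**Figure D4:**
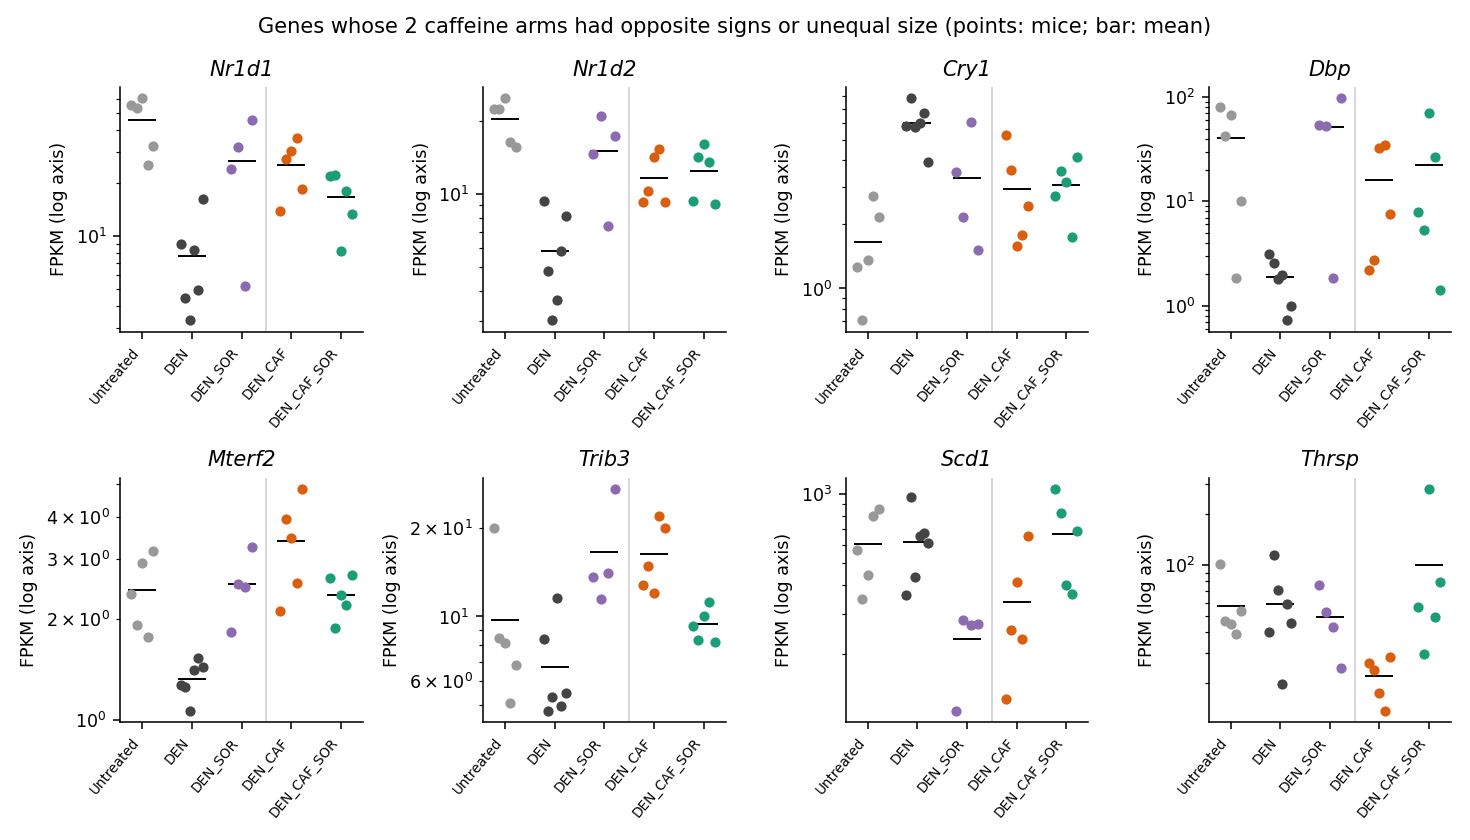
FPKM (log axis) of 4 clock genes, Mterf2, Trib3, Scd1 and Thrsp in the 5 groups (points, mice; bar, mean; caffeine groups right of the grey line). For Trib3 the DEN livers (4.75 to 11.6 FPKM) lie below the DEN_CAF livers (12.0 to 22.1), while the DEN_SOR livers (11.4 to 27.3) lie above the DEN_CAF_SOR livers (8.18 to 11.2).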

How the data were processed

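The authors deposited 1 table per group, named for FPKM. Each deposited column holds a signal, the whole reads on a gene scaled by a factor for the library and not by gene length. Reads were aligned with HISAT2 2.0.5 and counted with featureCounts 1.5.0-p3 with GRCm39 as the build, according to the submitters' processing notes (per the labels). Neither the annotation release nor the strand setting is given in the sources used here, and values of overlapping genes are uncertain.

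In all 25 libraries 100% of values were whole multiples of 1 step within 0.01 read, and reads were recovered from them. Because the planned test needs FPKM, these were calculated from the reads, the listed gene length and the TMM library size (edgeR 4.0.16) over the 20 libraries together. Of 30524 genes, 26555 stood in all 4 carcinogen tables, and the 12470 that reached an FPKM of 1 in 4 or more libraries were tested, with limma 3.58.1 under R 4.3.3 (trend) on log2(FPKM + 1), two-sided, with caffeine and sorafenib terms (17 residual degrees of freedom) and Benjamini-Hochberg adjustment at 0.05. Differences on this scale understate low genes. edgeR's quasi-likelihood test and DESeq2 1.42.0 were run on the recovered reads.

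Each library is a separate mouse by its title, and p-values measure the spread between these mice. Among 41 pairs of libraries of a group, chi-square per degree of freedom ran from 17.1 to 380, so none repeated another. Genes named are the 10 protein-coding genes of lowest unadjusted p on either side, up to 4 members of each list with the largest difference, and caffeine, clock, lipid and tumour genes taken whatever their values. The gene lists and named genes were chosen with earlier results of these data known, and the promoters were not examined because no gene was called. Steps were tested on simulated data.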

Additional observations from a re-analysis of the deposited data

Results flagged for a closer look

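In 71 named genes and 4 groups, 18 of 284 combinations (6.34%) had 1 library far from the others of its group, where chance gives about 1 in 20. DEN_SOR 1 held 4 of them: Cwc27 at 3.93 FPKM (others 2.77 to 2.92), Fbxw4 at 7.08 (5.72 to 5.81), Scd1 at 113 (269 to 283) and Igkc at 280 (35.1 to 40.0). In the DEN group, DEN 1 stood apart in Per1 at 13.2 FPKM (0.322 to 1.94) and Cdkn1a at 83.3 (6.38 to 12.3), DEN 3 in A1bg at 32.6 (0 to 1.42), and DEN 4 in Kat8 at 4.02 (5.66 to 6.19) and Igkc at 124 (9.15 to 25.0). DEN_CAF 1 stood apart in Per1 at 4.79 FPKM (1.02 to 1.23) and Enpp3 at 5.39 (8.53 to 9.81), and DEN_CAF 5 in Ly6d at 32.0 (10.7 to 14.6). DEN_SOR 3 had Dbp at 1.83 FPKM (52.9 to 97.5). Among DEN_CAF_SOR livers, Ywhag was at 11.7 FPKM in library 1 (14.6 to 15.3), Nacc1 at 4.16 in library 2 (5.45 to 6.02), Aox3 at 12.8 (43.3 to 61.5) and Cyp4a12a at 9.90 (90.5 to 106) in library 3, and Akr1c18 at 11.8 in library 4 (0.195 to 0.940).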

How the results depend on the processing

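The count for the caffeine main effect was 0 under every alternative except sample quality weights, where Mir6942 was called (1 gene), and leaving out 1 library, where it ran from 0 to 1 (Mir6942 without DEN 4). For the interaction DESeq2 called 8 genes, quality weights 1 (Trib3), the fit with the replicate block 1 (Trib3), and leaving out 1 library 0 to 1 (Trib3 without DEN 4, Cyp2c69 without DEN_SOR 2). Without sorafenib the count was 7 by DESeq2, 3 with quality weights, 1 with a pseudocount of 0.1, 1 with all 25 libraries, 1 without DEN 3, DEN 4 and DEN_SOR 4, and 0 to 1 without 1 library (Mterf2 without DEN_CAF 1). With sorafenib it was 1 by DESeq2 and 0 to 1 without 1 library (Cyp2c69 without DEN_SOR 2). The cause was not tested. Leaving out the 3 libraries together was chosen after seeing the data, and it removes livers only from the side without caffeine. In the block check, 22 of 27 pairs of libraries with the same number had deviations correlated above 0.1 (all pairs from -0.244 to 0.538, median 0.17 against -0.07 for other pairs), and 6 libraries correlated best with their own number. As some pairs lay below 0.1 and the labels name nothing shared by a number, the mice were treated as unpaired. In every group of carcinogen-treated livers, libraries 3 and 4 had the highest shares of mitochondrial reads. The main fit leaves any variation shared by a number in its error. The block changed no other count of calls.

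Signs turned for these log2 differences. Mup7 was at -0.52 by edgeR and -0.52 by DESeq2. Among libraries numbered 3 and 4 only, Per1 was at 0.36, Arntl at -0.73, Thrsp at 0.33, Scd1 at -0.10 and Tat at 0.10. Among the other libraries Xdh was at 0.0026, Nr1d2 at -0.022, Dbp at -0.93, H19 at 0.48, Lcn2 at 0.26, Mup7 at -0.15, Cyp7b1 at -0.017 and Cyp8b1 at -0.034. With quality weights Scd1 was at -0.35, H19 at 0.40, Mki67 at 0.035, Sik1 at 0.056, Cyp2b10 at -0.071, Ly6d at 0.072, Lcn2 at 0.33, Mup16 at -0.016, Mup7 at -0.69, Cyp8b1 at -0.081 and Cyp4a12a at -0.078. Without DEN 3, DEN 4 and DEN_SOR 4, Cyp1a2 was at -0.022, H19 at 0.22, Mki67 at 0.16, Cyp2b10 at -0.36, Lcn2 at 0.087, Mup7 at -0.74, Cyp8b1 at -0.23 and Cyp4a12a at -0.017. Leaving out 1 library moved Arntl from -0.052 to 0.22, Cdkn1a from -0.28 to 0.16, Mki67 from -0.16 to 0.088, Scd1 from -0.13 to 0.34 and Xdh from -0.12 to 0.038. None of these genes was called for the caffeine main effect under any setting tried. Of 1172 values of named genes under settings other than leaving out 1 library, 1137 kept sign and side of the threshold, as did 1394 of 1408 with 1 library left out. Of 2179 list medians 2168 moved by less than 1 SD of the list's mean level between libraries. That SD can exceed the median itself, so a median that changed sign can count as unmoved. The CAR and PXR targets were such a list, with an SD of 0.70 and a median of 0.24 that was -0.28 without the 3 outlying libraries. Depth limits Mir6942 and other genes with few reads, for which no difference may be detectable.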

Other observations

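Some groups of genes whose caffeine main effect had a median near 0 had nearly all members on opposite sides in the 2 arms. All 15 mitochondrially encoded genes were above 0 without sorafenib (median 0.26) and 0 of 15 with it (median -0.34), and their main-effect median was 0.00. That median was 0.27 without DEN_SOR 4 and 0.57 without DEN 3, DEN 4 and DEN_SOR 4. DEN_SOR 4 and DEN 3 had the highest shares of mitochondrial reads, 34.8% and 33.4%. Of 30 cytosolic ribosomal protein genes 1 was above 0 without sorafenib (median -0.12) and 27 with it (median 0.16). Genes of each list share libraries and scaling, no member was called, and the difference between the arms was not tested for the lists. Of 25 cholesterol synthesis genes 15 were above 0, with a median of 0.01 and medians of -0.01 and -0.02 in the arms.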
